A study of Gallus gallus with 4 samples.

Results

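Muscle myosins and sarcoglycans were represented by 5 of the 929 genes that could be given a symbol on the arrays, the 3 muscle myosin genes MYH6, MYL4 and MYL10 and the 2 sarcoglycan genes SGCB and SGCD. They were selected on measured values, since the study listed them as differentially expressed between the same cells on the same arrays. Their ratios are therefore given as a description, without a test. The members were found by sequence accession, and each had 1 probe, S64689 for MYH6, J02823 for MYL4, CR353595 for MYL10, AJ720367 for SGCB and CR405962 for SGCD.

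RNA of a pair of chicken cell types was hybridized together on each of 4 arrays, 1 dye for each cell type. Primary chicken embryo fibroblast (CEF) cells were prepared by dissociating whole 10 day old specific-pathogen free embryos and were used at passage 4, labeled with Cy3. DF-1, a single spontaneously immortal CEF line derived from Line 0 embryos and used after long culture, was labeled with Cy5, and both were grown untreated under the same conditions. The primary cells did not come from the embryos that gave rise to DF-1, so line and embryo source cannot be told apart. No array had the dyes exchanged, and a response of a probe to the dye cannot be told apart from a difference between the cells. The study's methods give 4 biological replicates of each cell line, and the labels number the arrays as replicates 1 to 4. The design text names 1 sample of each cell type, so the spread over arrays may be technical. Each value is a log2 ratio of DF-1 over CEF, on which 1 is a 2 fold higher and -1 a 2 fold lower signal in DF-1 cells. The ratios carry no level in either cell type, and in such bulk RNA fewer cells of a type cannot be told apart from less RNA per cell.

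Muscle myosin is a motor built of heavy chains, which hydrolyze ATP and pull on actin, and of light chains that stiffen and regulate the neck of each heavy chain. An essential, or alkali, light chain and a regulatory light chain sit on every head, and muscles at different stages and places use different genes for each of them. Sarcoglycans are membrane proteins of muscle that join dystroglycan and dystrophin in a complex that links the cytoskeleton to the extracellular matrix. Mutations of the beta and delta sarcoglycan genes cause limb-girdle muscular dystrophies in humans.

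The probes themselves are 60 bases long, and the sequences of 2 of the 5 could be read from the study's probe list, of which 1773 rows were used here. They are shown since each ratio rests on this 1 stretch of its transcript. The SGCD probe is given whole, and of the MYL4 probe the last 30 bases are given, with the hexamer ATTAAA, a form of the vertebrate polyadenylation signal, in capitals. A probe for U87231, a further muscle myosin heavy chain described below under its study symbol MYH4, is given whole for comparison.
SGCD: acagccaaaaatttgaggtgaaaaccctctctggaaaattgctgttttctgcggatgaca
MYL4: ctgtgtcatttgcatcATTAAAcctcattc
MYH4: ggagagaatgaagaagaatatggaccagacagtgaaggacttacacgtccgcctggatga
The GC content was 41.7% for the SGCD probe, 33.3% for the whole MYL4 probe and 48.3% for the MYH4 probe, against a median of 43.3% over the readable probes. The MYL4 probe lay below their 5th percentile of 35.0%. ATTAAA, searched on both strands, occurred in 6.09% of the readable probes and in 2.93% in the orientation printed. The study's list placed the SGCD probe on chromosome 13, the MYL4 probe on chromosome 27 and the MYH4 probe on chromosome 18.

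The 3 myosin genes did not move in 1 direction. In DF-1 cells the heavy chain MYH6 and the regulatory light chain MYL10 had ratios above 0 on all 4 arrays, while the essential light chain MYL4 was below 0 on all 4. Both sarcoglycan genes were below 0 on all 4 arrays and near a 2 fold difference.

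MYH6, which in mammals encodes the alpha heavy chain of heart muscle myosin, had log2 ratios of 3.39, 4.29, 3.10 and 4.03 on arrays 1 to 4. Arrays 2 and 4 were the high ones and arrays 1 and 3 the low ones, with no value under 3. The mean was 3.71 ± 0.55 (SD, n = 4 arrays), a 13.0 fold higher signal in DF-1 cells that ran from 8.60 to 19.6 fold over the arrays. This placed the probe as number 47 from the highest mean among the 42034 gene probes. Its spread was the widest of the 5 genes, and 89.8% of gene probes had a smaller SD.

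The identity of this heavy chain has a limit. RefSeq's chicken gene table held 0 genes with the symbol MYH6 and 1 gene with MYH6 as a synonym, MYH15, whose other synonyms include VMHC1. The accession S64689 was not paired with a gene there and its probe sequence was not read here. Heavy chain genes form a family, and which of them the MYH6 probe measured was not tested.

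MYL10, a regulatory light chain, had log2 ratios of 1.53, 1.84, 1.83 and 2.27 on arrays 1 to 4. Array 4 was the highest and array 1 the lowest, and every array passed a 2 fold difference. The mean was 1.87 ± 0.30 (SD, n = 4 arrays), a 3.66 fold higher signal in DF-1 cells, number 526 from the highest among all gene probes. On each array the ratio of MYH6 exceeded that of MYL10, by 1.84 ± 0.48 on the log2 scale on average (SD, n = 4). This is a difference of 2 ratios and not of 2 transcript levels.

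MYL4, the essential light chain of atrial and embryonic muscle, had log2 ratios of -3.16, -3.21, -3.10 and -3.11 on arrays 1 to 4. All arrays lay within 0.11 of each other. The mean was -3.14 ± 0.05 (SD, n = 4 arrays), an 8.84 fold lower signal in DF-1 cells, number 434 from the lowest. Among all gene probes 0.79% had a smaller SD as deposited, and among the probes called different 0.977% did. This narrow spread depended on the array level. With each array shifted to a median of 0, as described below, 30.7% of gene probes had a smaller SD than MYL4. The log2 ratio of MYL10 exceeded that of MYL4 by 4.70, 5.05, 4.93 and 5.38 on arrays 1 to 4, so the 2 kinds of light chain lay on opposite sides of 0 on every array.

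SGCD, the delta subunit of the sarcoglycan complex, had log2 ratios of -1.01, -1.07, -1.07 and -1.22 on arrays 1 to 4. Each array was below -1, with array 4 the lowest. The mean was -1.09 ± 0.09 (SD, n = 4 arrays), a 2.13 fold lower signal in DF-1 cells, number 2286 from the lowest. SGCB, the beta subunit, had log2 ratios of -1.08, -1.13, -0.92 and -0.66 on arrays 1 to 4. Arrays 1 and 2 passed -1 while arrays 3 and 4 did not, and array 4 was the highest, where it was the lowest for SGCD. The mean of SGCB was -0.95 ± 0.21 (SD, n = 4 arrays), a 1.93 fold lower signal, number 2714 from the lowest. The ratios of the 2 subunits differed by 0.14 ± 0.29 (SD, n = 4, SGCB minus SGCD), below the spread between arrays.

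**Figure D1:**
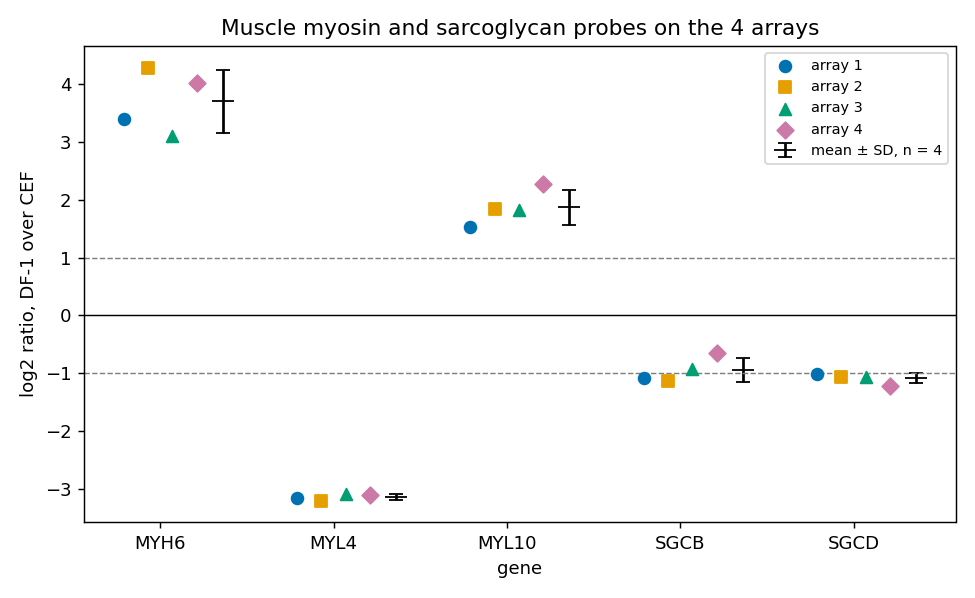
Log2 ratio of DF-1 over CEF (vertical axis) for each of the 5 genes (horizontal axis), with a symbol per array, the mean with its SD over 4 arrays at the right of each gene, and dashed lines at a 2 fold difference. Values are as deposited. MYH6 and MYL10 lie above the upper line on every array, MYL4 lies tightly at -3.14, and SGCB and SGCD sit around the lower line.

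Among all gene probes the 5 genes fell in different parts of the distribution of mean log2 ratios, whose 5th and 95th percentiles were -1.18 and 1.12. MYH6, MYL10 and MYL4 lay outside these percentiles and both sarcoglycans lay inside them. The median over all gene probes was 0.22.

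**Figure D2:**
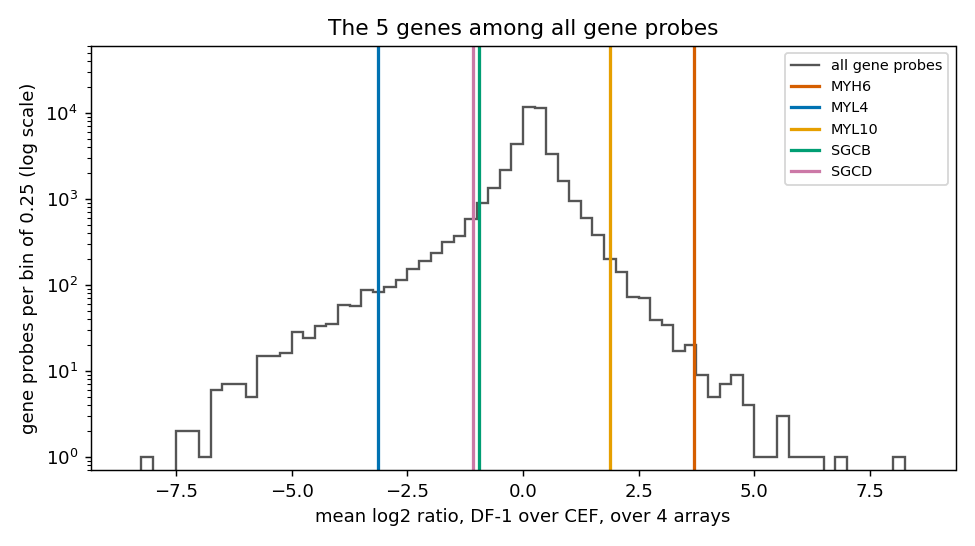
Number of gene probes per bin of 0.25 (vertical log axis) against the mean log2 ratio of DF-1 over CEF over 4 arrays (horizontal axis), with a line at the mean of each of the 5 genes. MYH6 at 3.71 and MYL4 at -3.14 stand in the sparse tails, and the lines of SGCB and SGCD at -0.95 and -1.09 stand beside each other on the lower slope.

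The study called a gene different at a p under 0.05 from a moderated t statistic together with a 2 fold difference. Here limma's moderated test of the mean ratio against 0 was used, and a call needed a mean log2 ratio past 1 or -1 besides an unadjusted p under 0.05. Of the 42034 gene probes 12.2% passed both thresholds, 6.12% higher and 6.06% lower in DF-1 cells. Of the 5 genes, 2 passed as higher, MYH6 and MYL10, 2 passed as lower, MYL4 and SGCD, and SGCB did not reach the 2 fold threshold. Because the same contrast chose the genes, nothing is read from this count. The study itself listed SGCB as lower past 2 fold, so its value for SGCB differed from the mean log2 ratio found here. SGCB was not alone in this. Of the 881 genes named by study tables, 96 were not called here, and 52 with every array shifted to a median of 0, as described below. Of the 5 genes, SGCD at -1.09 was the called gene nearest to the threshold, while SGCB at -0.95 stopped just short of it.

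Whether SGCB passed depended on the level given to the arrays and on which arrays were kept. The gene probes had a median log2 ratio that ran from -0.04 on array 1 to 0.47 on array 4, and that of the negative control spots from 0.02 to 0.53 on the same arrays. When every array was centered, so that the median of its gene probes became 0, SGCB had log2 ratios of -1.03, -1.33, -1.14 and -1.13, all below -1, with a mean of -1.16 ± 0.13 (SD, n = 4 arrays). It then passed as lower, as did MYL4 and SGCD, while 11.9% of all gene probes passed, 4.16% higher and 7.76% lower. Without array 4 the mean of SGCB as deposited was -1.04 and it passed as well, and without array 1, 2 or 3 it did not. SGCD after the shift had -0.97, -1.27, -1.28 and -1.69 with a mean of -1.30 ± 0.30, so that its spread became wider and array 1 no longer passed -1.

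The same shift acted on the spread of the genes in opposite ways. The SD of MYL10 went from 0.30 to 0.10 and that of SGCB from 0.21 to 0.13. The SD of MYL4 went from 0.05 to 0.19 and that of SGCD from 0.09 to 0.30. MYH6 kept arrays 2 and 4 above arrays 1 and 3, at 4.09 and 3.56 against 3.44 and 2.89. Over all gene probes after the shift, both arrays 2 and 4 exceeded both arrays 1 and 3 in 25.1% and fell below both in 20.2%. Across all gene probes the Pearson r was 0.929 between arrays 1 and 3 and 0.893 between arrays 2 and 4. The other pairs of arrays had an r from 0.813 to 0.861. The SDs and the limma p values given here treat the 4 arrays as independent. Whether the pairing of arrays accounts for the spread of MYH6 was not tested.

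**Figure D3:**
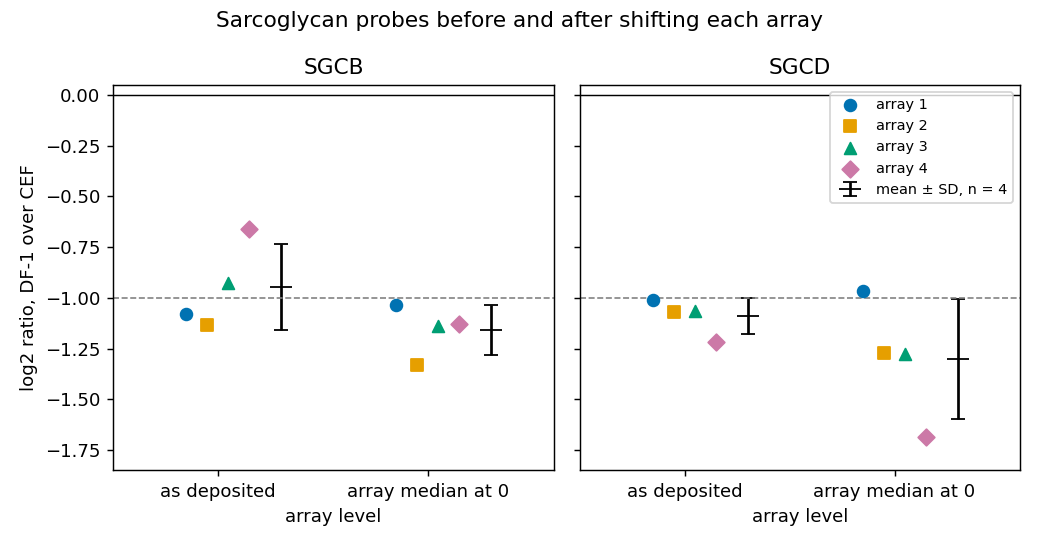
Log2 ratio of DF-1 over CEF (vertical axis) of SGCB and SGCD on each array, as deposited and with every array centered on its median (horizontal axis), with the mean and SD over 4 arrays and a dashed line at a 2 fold lower signal. The mean of SGCB crosses the line from -0.95 to -1.16, while the arrays of SGCD spread out from -1.22 to -1.01 as deposited to -1.69 to -0.97.

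To place the 5 genes beside others of muscle, 6 lists were used that held 212 genes in all, for the thick filament, the thin filament and Z-disc, non-muscle and smooth muscle contraction, the dystrophin complex, muscle and heart regulators, and excitation and energy supply. A probe could be given to 23 of the 212 by accession, the 5 genes included. Of the other 18, limma called 2 higher and 14 lower in DF-1 cells and 2 were not called, with a median log2 ratio of -1.98. Study tables gave the names of 16 of them, which were chosen on these arrays as well, and their count carries no independent evidence on direction. The p values given below for genes named by study tables describe values already selected and are not new tests. Over all 881 genes named in this way, 396 were higher, 389 were lower and 96 were not called, with a median of -0.89. With every array centered, 350 of the 881 were higher and 479 lower, while the 18 muscle list genes still gave 2 higher and 14 lower.

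The 1 other muscle heavy chain that could be given a probe lay opposite to MYH6. Of 29 thick filament genes listed, 4 could be given a probe, and this heavy chain was itself chosen on these arrays. MYH4, whose accession carries MYH1 in a second study table and which belongs to the fast skeletal heavy chains, had log2 ratios of -3.29, -2.32, -3.17 and -2.14 on arrays 1 to 4. Arrays 2 and 4 were again above arrays 1 and 3, and no array overlapped with MYH6. The mean was -2.73 ± 0.58 (SD, n = 4 arrays), and limma gave a p of 1.76e-05 after Benjamini-Hochberg adjustment over all gene probes. RefSeq lists 7 chicken genes from MYH1A to MYH1G and neither MYH1 nor MYH4, so this probe may read several of them.

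In the thin filament and Z-disc list, PDLIM3, a PDZ and LIM protein of the Z-disc, was higher at 1.55 ± 0.24 (SD, n = 4 arrays), and CRYAB, a small heat shock protein that protects desmin, was lower at -3.65 ± 0.62. In the non-muscle and smooth muscle list 5 of 37 genes had a probe. All 5 were called lower, where 6.06% of all gene probes were. Study tables named all 5, which were thus chosen on these arrays, so nothing is read from this count. Among them were PDLIM4, a LIM protein of actin stress fibers, at -3.54 ± 0.29, CSRP2, a LIM protein of smooth muscle, at -2.15 ± 0.23, and CALD1, the actin-binding caldesmon, at -2.07 ± 0.57. MYH10, the heavy chain of a non-muscle myosin, was at -1.13 ± 0.33 and CSRP1, a relative of CSRP2, at -1.09 ± 0.17. By limma all 7 genes of these lists had an adjusted p of at most 0.000642, that of MYH10. The mean of MYH10, a member of the heavy chain family outside muscle, thus lay close to those of the sarcoglycans and far from that of MYH4.

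Of the dystrophin complex and its partners, 3 genes besides the sarcoglycans had a probe. AGRN, the matrix protein agrin that binds dystroglycan, had log2 ratios of -3.18, -3.32, -3.07 and -3.26 on arrays 1 to 4, with a mean of -3.21 ± 0.11 (SD, n = 4 arrays). LAMB2, a laminin chain of muscle basement membrane, had a mean of -1.89 ± 0.27, and POMT1, an enzyme that starts the sugar chains by which dystroglycan binds laminin, had 2.08 ± 0.21. POMT1 was called higher and the other 2 lower, with a largest adjusted p of 1.93e-05 from limma, for LAMB2. Both sarcoglycans stood nearer to 0 than each of these partners. Study tables named all 3 partners, which were thus chosen on these arrays past a 2 fold difference. Partners with smaller differences mostly had no name here, so nothing is read from this order.

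The muscle regulators MEOX2 and MYOD1 were lower in DF-1 cells. MEOX2, a homeobox factor of somites and limb muscle, had a mean log2 ratio of -4.63 ± 0.25 (SD, n = 4 arrays). MYOD1, the factor that commits cells to skeletal muscle, had log2 ratios of -1.36, -1.46, -1.14 and -0.93 on arrays 1 to 4, with a mean of -1.22 ± 0.23. MYOD1 had the larger adjusted p of the pair, 0.000227 from limma. As markers of muscle cells that a whole-embryo culture could hold, 9 genes of skeletal, 8 of heart and 6 of smooth muscle had been listed. Under the symbols used here only MYOD1 of the first, MYH6 of the second and 0 of the third could be given a probe. The skeletal markers also held MYH1, the symbol that a second study table gives to the MYH4 probe, with its mean of -2.73. MYOD1 and MYH6 lay on opposite sides of 0, and the MYH4 probe lay on the side of MYOD1. These probes were chosen on the same arrays, and which heavy chain the MYH6 probe measured was not tested, so nothing on muscle cells is read from their signs. Whether muscle cells in the CEF cultures had a part in the ratios of MYL4, SGCB and SGCD was not tested.

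In the excitation and energy list, GEM, a small GTPase that restrains calcium channels, had a mean log2 ratio of -4.62 ± 0.43 (SD, n = 4 arrays), with an adjusted p of 2.6e-07 by limma. PFKM, the muscle phosphofructokinase, had 2 probes, which were called lower at -1.66 ± 0.17 and -2.33 ± 0.14. CHRND and CHRNG, the delta and gamma subunits of the acetylcholine receptor of embryonic muscle, were named through RefSeq alone. Such genes are those that the study's tables of different genes did not name, so few calls among them were to be had in advance. CHRND had log2 ratios of -0.34, 0.45, 0.01 and 0.37 on arrays 1 to 4, on both sides of 0, and CHRNG had -0.61, -0.73, -0.45 and -0.0014. Neither was called, since both means, 0.12 for CHRND and -0.45 for CHRNG, stayed within 2 fold. By limma CHRNG had an unadjusted p of 0.0199 and an adjusted p of 0.0611, and CHRND had 0.48 and 0.577. Of all 48 genes named in this way, 1 was called higher and 2 lower, where 12.2% of all gene probes were called. Because of how these genes were named, nothing is read from this count.

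**Figure D4:**
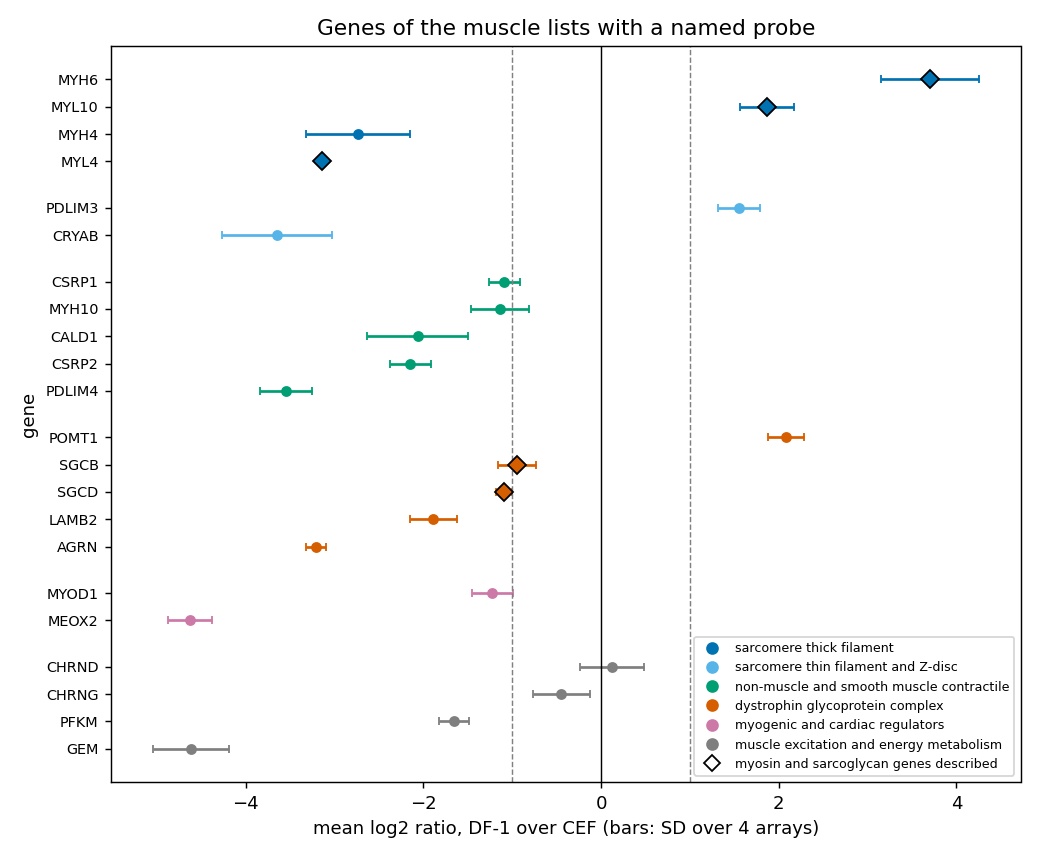
Mean log2 ratio of DF-1 over CEF with its SD over 4 arrays (horizontal axis) for genes of the 6 muscle lists that had a named probe (vertical axis), colored by list, with diamonds for the 5 myosin and sarcoglycan genes and dashed lines at a 2 fold difference. MYH6, MYL10, PDLIM3 and POMT1 stand above the upper line, and MEOX2 and GEM are the lowest at -4.63 and -4.62.

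The study placed SGCB and SGCD together in 1 of its gene networks, which held 25 genes with a probe and was drawn around SRC and actin. Of the other 23, limma called 9 higher and 12 lower and 2 were not called, where 12.2% of all gene probes were called. Their means ran from -4.09 for CDH11 to 1.82 for NCALD, with a median of -1.01. SRC, the tyrosine kinase at the center of that network, was higher at 1.68, and SEPN1, a selenoprotein whose loss causes a muscle disease in humans, was lower at -1.96. The 2 sarcoglycans were thus close to the median of the network and not at its lower end. No gene of the network lay between ROR1 at -0.88 and RALGAPB at 1.27, so this median falls at the edge of the lower genes. These genes were chosen on the same arrays past a 2 fold difference, so nothing is read from their counts or from the place of the sarcoglycans near this median.

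The labeled cell type was set against markers of fibroblasts. Of 21 such markers 10 could be given a probe, of which 9 were called lower and 1, TWIST2, higher in DF-1 cells. All 10 were named by the study's tables and thus chosen on these arrays, where 396 of 881 genes were higher and 389 lower, so that their count carries no independent evidence either. LUM, a matrix proteoglycan, had -3.18 ± 0.08 (SD, n = 4 arrays), close to MYL4 in mean and spread. Ratios do not show whether a marker is present in both cell types. Of 12 endothelial markers 1 had a probe, CLDN5 at -2.98 ± 0.27, and of 12 epithelial markers 0 had one.

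For each of the 5 genes the nearest profiles were sought among the other 928 genes with a symbol, as the Euclidean distance over the 4 log2 ratios. For MYH6 the nearest was PLEK2, a pleckstrin of the actin cytoskeleton, at a distance of 0.51. MYL10 had PRIM2, a primase subunit, at 0.23 and KIF18B, a mitotic kinesin, at 0.26. MYL4 had PLTP, which transfers phospholipids, at 0.16 and AGRN at 0.20, the latter a gene that the muscle lists also held. SGCB had SGK223 at 0.13 and SLA, an adaptor of SRC family signaling, at 0.14. SGCD had ST6GALNAC4, a sialyltransferase, at 0.09 and ADSS, an enzyme of AMP synthesis, at 0.17. Neither sarcoglycan was among the 2 nearest genes of the other. With 4 arrays such distances rest mostly on the mean, and they are a description alone.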

How the data were processed

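The authors scanned Agilent chicken oligo arrays, on which Cy3 marked CEF and Cy5 marked DF-1, and applied a background correction followed by a loess normalization within arrays. The deposited values were a linear ratio of DF-1 over CEF per spot and the same as a log2 ratio, equal to within 5.0e-05. Intensities were not used here, so no filter on dim probes was applied and signal over background is unknown. The deposited mean and SD columns hold linear values and were not used.

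Of 45220 spots, 42034 gene probes were kept and controls left out. Log2 ratios were used as deposited. The mean of each probe over 4 arrays was tested against 0, 2-sided, with limma 3.58.1 (R 4.3.3), with Benjamini-Hochberg adjustment over all gene probes. The fit was checked on data drawn with known differences. Tables and figures used Python 3.11.15, pandas 2.3.3 and matplotlib 3.10.9.

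Symbols came by accession from the study's tables, 902 probes, and from RefSeq accessions, 49 probes. A gene with more than 1 probe was represented by the first in order of probe name. The genes named are the 5 members, every gene of the muscle lists with a probe, and the 2 nearest profiles of each member, apart from some that are not reported here. Network, marker and probe list genes beyond this rule were named after their values had been seen. The members and lists were chosen with earlier results of these data known. Alternatives were the array level, adjusted p, other fold thresholds, robust variances, limma's treat test, the log2 table, medians over probes and leaving out each array.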

Additional observations from a re-analysis of the deposited data

How the results depend on the processing

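All 5 genes kept their sign under every alternative run. Each had the same sign on every array and 1 probe, so leaving out an array or taking medians over probes could not change it. With every array centered on a median of 0, all means fell by the same amount. MYH6 was then at 3.50, MYL10 at 1.66, MYL4 at -3.35, SGCD at -1.30 and SGCB at -1.16. This amount was larger than the SD over arrays of MYL4 and SGCD and smaller than that of MYH6, MYL10 and SGCB. That contrast reflects the SDs alone and not a different response of the genes to the shift. Leaving out 1 array at a time gave means from 3.51 to 3.91 for MYH6, -3.16 to -3.12 for MYL4, 1.74 to 1.98 for MYL10, -1.04 to -0.89 for SGCB and -1.12 to -1.05 for SGCD. MYH6, MYL4 and MYL10 passed the thresholds under all alternatives. SGCD did not pass a 3 fold threshold or the treat test of limma against 2 fold, and SGCB passed only with the shift, without array 4, or with no fold threshold. Across all gene probes 2571 were called higher and 2548 lower. A 3 fold threshold gave 878 and 1470, an adjusted p without a fold threshold 8114 and 4657, and the treat test 879 and 1406, while the shift gave 1749 and 3262. With 1 array left out 2253 to 2997 were higher and 2330 to 2881 lower. In the muscle lists, in place of 2 higher and 14 lower, a 3 fold threshold gave 1 and 11 and the treat test 2 and 11, and leaving out an array gave 2 higher and 14 lower each time. Each of these genes but PFKM had 1 probe. The ratio within an array already pairs the cell types, and the arrays form 1 group, so no replicate block was added. The number of arrays limits the precision.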

Other observations

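Among the 5 genes and the other 18 of the muscle lists, 0 of 23 had an array set far apart from the other 3 by Dixon's test for 4 values. ACTN4, an actinin of non-muscle cells, carried a symbol only in the part of the study's probe list read here. It had log2 ratios of -0.76, -0.93, -0.87 and -1.63 on arrays 1 to 4 and a mean of -1.05 ± 0.40 (SD, n = 4 arrays), near the means of the sarcoglycans. Array 4 was the lowest, as for SGCD.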
